A study of Mus musculus with 36 samples.

Results

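The translation initiation factors and the eIF4E-binding proteins were followed in liver and quadriceps muscle of mice whose liver had been partly removed. Members were all rows of the deposited gene table whose symbol starts with Eif followed by a digit from 1 to 6, without the eIF2 kinases (symbols starting with Eif2ak). This gave 48 of the 14702 genes in the table, and all 48 passed the filter on low counts in both tissues. RNA-seq libraries of total RNA came from the livers and the quadriceps muscles of C57BL6/J males aged 12 to 14 weeks after a partial hepatectomy (PHx), the surgical removal of 70% of the liver, after which the remaining lobes grow back. Sham mice had their abdomen opened without resection. Each tissue had 3 sham libraries and 5 libraries from each of days 1, 3 and 7 after PHx, 36 libraries in all, and the labels name no transgene or drug in any group. Sample titles gave the days, since all samples, also the sham ones, carried day 3 in their treatment field. On which day sham mice were sampled is not known. The labels spoke of 3 sham and 5 hepatectomy animals but did not tie animals to libraries or days, so that p-values measure the spread between these samples.

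Initiation factors bring the ribosome to the start codon of a messenger RNA. The cap-binding protein eIF4E, the scaffold eIF4G and the RNA helicase eIF4A together form eIF4F on the capped end of the message, while eIF2 carries the initiator tRNA to the small ribosomal subunit and eIF3 holds that subunit to the message. The eIF4E-binding proteins (4E-BPs) compete with eIF4G for eIF4E and let go of it when the growth kinase mTORC1 phosphorylates them, and the exchange factor eIF2B recharges eIF2 with GTP, a step blocked when eIF2 is phosphorylated under stress. Much of this control acts on proteins and phosphorylation, which messenger RNA counts do not measure. Liver regrows through growth and division of its remaining cells, and skeletal muscle is a large store of protein that responds to fasting and glucocorticoids with changed protein synthesis.

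Livers had 12464547 to 28862458 counted reads each, and muscles had 15506197 to 29623890. The tissue labels fitted the defining markers: summed over the hepatocyte list, livers held 90491 to 140256 CPM (reads scaled to library size within a tissue) and muscles 1.41 to 175 CPM. A pair of liver libraries went against their groups in the summed level of genes of cell division. Day 1 replicate 1 held 37.1 CPM of these genes against 3.68 to 10.9 in the other day 1 livers, and day 7 replicate 3 held 2.74 against 118 to 372. Counts for liver are therefore also given without both. Muscle fibre genes (15 of 15 detected) summed to 813 to 1442 CPM in sham livers, 1322 and 2102 in day 1 replicates 1 and 2, 65.9 to 102.1 in the other day 1 livers, 45.9 to 228 at day 3 and 28.5 to 328 at day 7. In quadriceps the same genes held 331783 to 390130.4 CPM in sham and 176582 to 266378 at day 3, macrophage genes 30.1 to 42.5 and 47.5 to 129, and adipocyte genes 712 to 3059.8 and 177 to 515. In liver, pancreatic islet genes (9 of 9 in the table) summed to 0 to 0.0739 CPM in sham, with 8 of the 9 at 0, and to 0.0400 to 0.401 at day 1, 9.34 to 232 at day 3 and 12.3 to 84.9 at day 7. Liver macrophage genes (7 of 7) held 142 to 206 CPM in sham, 112 to 167 at day 1, 228 to 473 at day 3 and 230.2 to 550.2 at day 7. Neutrophil genes (5 of 6 in the table) held 0.559 to 0.916 in sham livers and 2.65 to 38.3 at day 1. Of the erythroid list only 1 of 5 genes was in the table, at 123 to 153 in sham livers and 23.5 to 35.0 at day 3. Islet genes in quadriceps held 8.63 to 41.0 in sham and 0 to 0.307 at day 3. The part of these markers in the results below was not tested, and fewer cells of a type cannot be told apart from less RNA per cell in bulk tissue.

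A gene is said to have risen or fallen where edgeR's quasi-likelihood test gave a Benjamini-Hochberg adjusted p under 0.05 over all genes tested, and changes are log2 fold changes ± SE for 5 PHx against 3 sham libraries. The largest response of the initiation factors was in quadriceps at day 3, where 37 of 48 rose and 1, Eif4e, fell. Over all genes tested there 24.8% rose and 22.6% fell. The median log2 fold change of the 48 was 0.81, against -0.017 for all genes, and 19 of those that rose did so at least 2-fold. In 38 members all 5 day 3 libraries lay above all 3 sham libraries, which held for 25.4% of all genes, and in 3 they lay below (24.7% of all genes). Muscle at day 1 gave 0 calls among the members by edgeR at a background of 5.29% of all genes (3.04% higher and 2.26% lower), with 13 members at an unadjusted p under 0.05. The count there depended on the fit: edgeR with only the day 1 and sham muscles called 14 members, all higher, and 17.2% of all genes, and DESeq2 called 6. Without quadriceps day 1 replicate 1 edgeR called 1 at day 1. All day 1 muscles lay above all sham muscles in 29 members (16.8% of all genes) and below them in 1 (13.4%). At day 7 edgeR again called 0 in muscle, at a background of 0.0588% (0.0441% higher), with 14 at an unadjusted p under 0.05, 1 called by DESeq2 and 1 called by edgeR without day 7 replicate 1. All 5 day 7 muscles lay above sham in 3 members, against 4.54% of all genes, and below in 0 (5.59%). The median log2 fold change of the members in muscle was 0.32 at day 1 and 0.26 at day 7. For all genes it was 0.016 and 0.018.

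In liver members rose and fell at each day. At day 1, 13 members rose and 3 fell, against 16.7% and 11.0% of all genes, with a median log2 fold change of 0.36 in the members and 0.063 in all genes. All 5 day 1 livers lay above all sham livers in 18 members (14.5% of all genes) and below in 3 (14.4%). The day 1 count was 10 without sham replicate 1 and 26, with 23 higher and 3 lower, without day 1 replicate 1 or without both livers that went against their groups. It was 18 without the 2 day 1 livers rich in muscle genes. Sham livers held 813 to 1442 CPM of these genes, so leaving out the 2 does not balance them between the groups. With only the day 1 and sham livers in the fit the count was 8 (5 higher, 3 lower), and 9.85% of all genes were called. At day 3, 5 rose and 6 fell (15.8% and 12.8% of all genes), with a median of -0.054 against 0.042. At day 7, 1 rose and 5 fell (12.4% and 6.74%), with a median of -0.041 against 0.051. All livers of day 3 lay above sham in 12 members (27.3% of all genes) and below in 10 (24.6%), and those of day 7 above in 3 (15.5%) and below in 7 (15.2%). The day 3 count was 6 without sham replicate 3 and 23 (12 higher, 11 lower) with only the day 3 and sham livers in the fit, which called 52.9% of all genes, and the day 7 count was 3, 2 and 2 without sham replicates 1, 2 and 3. With both doubted livers left out the counts became 13 (7 higher, 6 lower) and 8 (1 higher, 7 lower), and no call was lost. The 3 day comparisons of a tissue share its sham libraries. Reads of the 48 genes together made up 0.434 ± 0.010% (SD, n = 3) of counted reads in sham liver and 0.462 ± 0.023% in sham quadriceps, and 0.510 ± 0.073% (n = 5) in day 1 liver and 0.798 ± 0.038% in day 3 quadriceps.

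**Figure D1:**
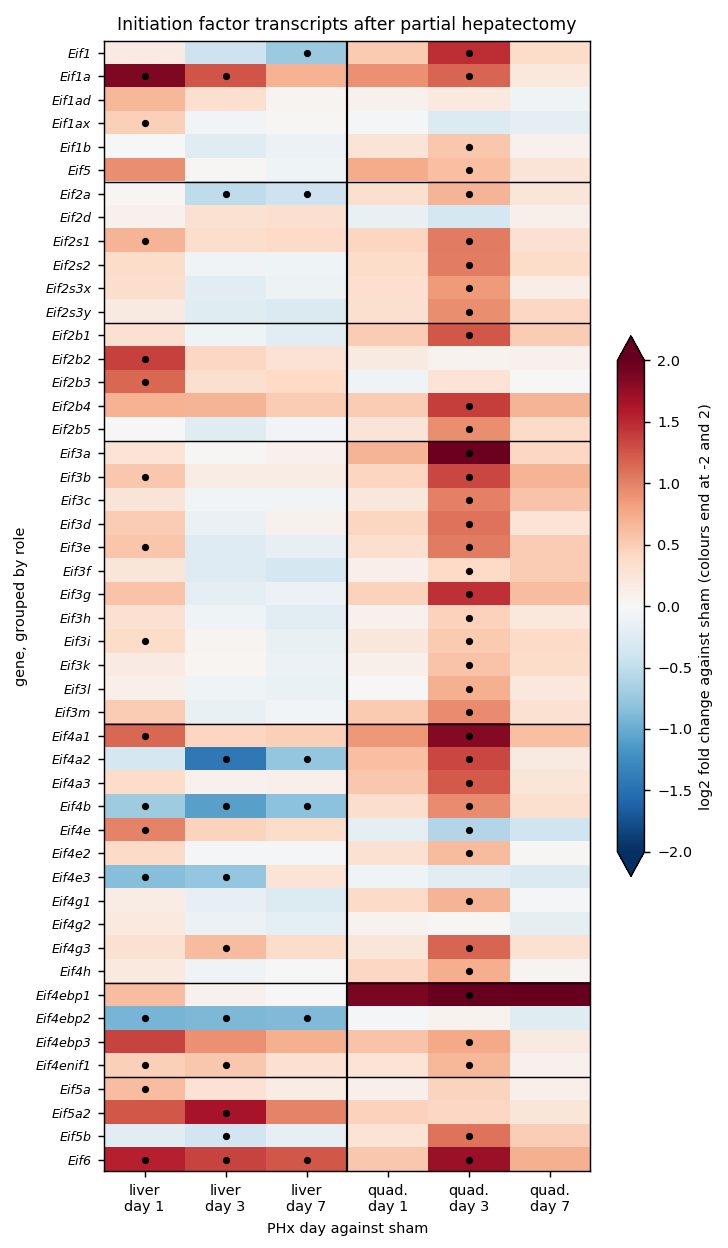
Log2 fold changes of the 48 initiation factor genes (rows, grouped by role) for each day after PHx against sham in liver and quadriceps (columns). Colours end at a change of 2 on the log2 scale in either direction, and dots mark the calls at an adjusted p under 0.05. The quadriceps day 3 column is red for 44 of the 48 genes, while the liver columns hold calls in both directions.

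Of the eIF4E-binding proteins, Eif4ebp1 rose in muscle and Eif4ebp2 fell in liver. Eif4ebp1 (chr8:27260327-27275656, plus strand, in mm10 as all gene positions here) codes for a binding protein that mTORC1 controls in muscle and many other tissues, and rose more in day 3 quadriceps than any other member. Its level in quadriceps was 20.4, 20.1 and 38.3 CPM in the sham libraries (given here and below in the order of their replicate numbers) and 127, 95.05, 137, 73.9 and 54.0 at day 1. Day 3 gave 258, 341, 348, 364 and 238 and day 7 gave 19.9, 133, 148, 53.5 and 204. All day 1 and day 3 muscles lay above all sham muscles, and at day 7 the groups overlapped. The log2 fold change was 3.56 ± 0.59 (adjusted p = 0.000479) at day 3, and 1.89 ± 0.54 (adjusted p = 0.0508) at day 1. Day 7 gave 2.09 ± 0.55 (adjusted p = 0.165). Liver held 21.6, 25.8 and 23.8 CPM in sham and 17.4, 42.7, 18.5, 52.2 and 51.7 at day 1. Day 3 gave 33.1, 25.7, 20.2, 26.9 and 20.5 and day 7 gave 14.7, 17.8, 39.8, 19.6 and 25.7. Livers of days 1, 3 and 7 all overlapped with sham. The changes there were 0.62 ± 0.37, 0.092 ± 0.36 and -0.012 ± 0.36 at days 1, 3 and 7, with adjusted p of 0.22, 0.874 and 0.988. With both doubted livers left out the day 1 change was 0.78 with an adjusted p of 0.0462.

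Eif4ebp2 (chr10:61432497-61452669, minus strand), another binding protein of the family with the higher level per kb in sham tissue, fell in liver at every day. Sham livers held 219, 201 and 239.9 CPM and day 1 livers 119, 90.7, 121, 129 and 115. Day 3 livers held 104, 114, 131, 111 and 132 and day 7 livers 90.4, 125, 118, 134 and 131. Every PHx liver lay below every sham liver. The changes were -0.94 ± 0.15, -0.89 ± 0.15 and -0.88 ± 0.15 with adjusted p of 0.000977, 0.000537 and 0.00184. Quadriceps values were 139, 161 and 169 in sham and 144, 147, 148, 169 and 163 at day 1. Day 3 gave 118, 191, 180.0, 169 and 157 and day 7 gave 136, 128, 127, 125 and 147. The muscle groups overlapped with sham at days 1, 3 and 7. No change there passed the test (-0.018 ± 0.15, 0.063 ± 0.15 and -0.24 ± 0.14, adjusted p 0.948, 0.739 and 0.557).

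Eif4ebp3, the remaining 4E-BP and the least studied, held 44.4, 28.8 and 16.9 CPM in sham liver and 54.1, 55.8, 142, 56.04 and 74.1 at day 1. Day 3 gave 62.6, 54.5, 77.4, 49.8 and 39.6 and day 7 gave 9.45, 48.1, 153, 10.8 and 23.1. Single livers stood far above the rest, replicate 3 of day 1 and replicate 3 of day 7, and no liver change passed (1.35 ± 0.71, 0.92 ± 0.70 and 0.70 ± 0.69, adjusted p 0.165, 0.344 and 0.506). Without both doubted livers the day 1 change was 1.42 with an adjusted p of 0.0382. In quadriceps it stood at 5.70, 5.17 and 5.70 CPM in sham and 10.2, 9.14, 7.09, 8.46 and 6.03 at day 1. Day 3 gave 9.87, 10.8, 7.44, 11.7 and 7.11 and day 7 gave 3.73, 6.203, 9.55, 4.83 and 7.17. It rose at day 3 (0.76 ± 0.27, adjusted p = 0.0273), a call lost without sham replicates 1, 2 and 3 and day 3 replicates 2 and 4 (adjusted p 0.0576 to 0.0891). Eif4enif1 codes for 4E-T, which carries eIF4E into the nucleus and to sites of message storage. It rose in liver at day 3, from 36.9, 35.7 and 38.2 CPM in sham to 60.5, 55.7, 53.1, 50.5 and 47.9 (0.54 ± 0.14, adjusted p = 0.0105), a call lost without sham replicate 2 (adjusted p 0.0561). It also rose in liver at day 1 (0.48 ± 0.14, adjusted p = 0.0214), lost without sham replicates 1, 2 and 3 and day 1 replicate 4 (adjusted p 0.0509 to 0.0706), and in quadriceps at day 3 (0.67 ± 0.18, adjusted p = 0.00664).

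**Figure D2:**
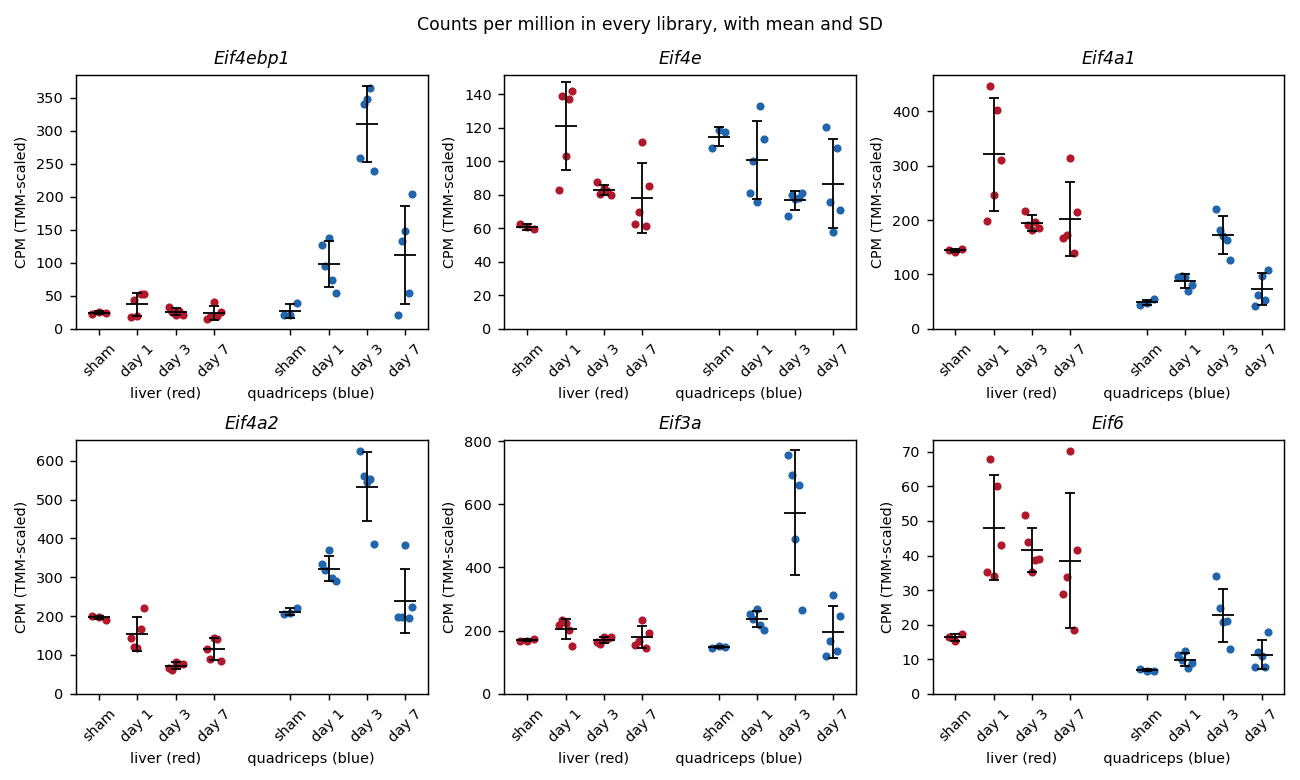
CPM per library of Eif4ebp1, Eif4e, Eif4a1, Eif4a2, Eif3a and Eif6 in sham and at days 1, 3 and 7 after PHx, for liver and quadriceps, with group means and SD as bars. In quadriceps the 5 day 3 libraries lie above the 3 sham libraries for Eif4ebp1, Eif4a1, Eif4a2, Eif3a and Eif6 and below them for Eif4e.

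The 11 eIF4 genes are those of the cap-binding complex, its helpers and relatives such as Eif4e2 and Eif4a3. In day 3 muscle 8 rose, Eif4e2 and Eif4a3 among them, and Eif4e fell (24.8% and 22.6% of all genes). In day 1 liver 2 rose and 2 fell, near the shares of all genes (16.7% and 11.0%). Eif4e (chr3:138526191-138557599, plus strand) codes for the cap-binding protein itself. Liver values were 62.5, 60.6 and 59.2 CPM in sham and 83.1, 139, 103.2, 137 and 142 at day 1. Day 3 gave 87.3, 80.4, 84.03, 82.3 and 79.97 and day 7 gave 62.8, 69.7, 111, 61.4 and 85.3. All day 1 livers lay above all sham livers. It rose at day 1 (0.99 ± 0.20, adjusted p = 0.00338), and the later changes were 0.45 ± 0.20 and 0.36 ± 0.20 (adjusted p 0.0976 and 0.203). Quadriceps held 108, 119 and 118 CPM in sham and 81.1, 99.9, 75.9, 133 and 113 at day 1. Day 3 gave 67.1, 79.6, 77.1, 77.99 and 80.9 and day 7 gave 121, 75.8, 58.0, 108 and 70.98. At day 3 it fell (-0.58 ± 0.21, adjusted p = 0.0325), a call lost without sham replicates 1, 2 and 3 and day 3 replicates 1 and 4 (adjusted p 0.0511 to 0.0885). The days 1 and 7 changes in muscle were -0.19 ± 0.22 and -0.40 ± 0.21 (adjusted p 0.583 and 0.485).

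Of its relatives, Eif4e2 codes for a cap-binding protein that tends to repress messages and Eif4e3 for one with weaker cap binding. Eif4e2 rose in day 3 muscle, from 33.0, 33.0 and 30.1 CPM in sham to 54.5, 61.2, 45.3, 49.1 and 37.0 (0.63 ± 0.15, adjusted p = 0.00318), and stood at 32.3, 29.7, 36.9, 27.7 and 36.4 at day 7. Its liver changes were 0.39 ± 0.18, -0.045 ± 0.18 and -0.026 ± 0.18, none past the test. Eif4e3 held 18.2, 12.1 and 13.8 CPM in sham liver and 9.38, 7.72, 6.84, 7.28 and 9.68 at day 1. Day 3 gave 8.60, 9.07, 7.59, 8.76 and 8.85 and day 7 gave 26.5, 16.4, 8.56, 23.2 and 14.1. It fell at day 1 (-0.85 ± 0.26, adjusted p = 0.0256) and day 3 (-0.78 ± 0.26, adjusted p = 0.0348), calls that were lost without sham replicates 1 and 3 and day 1 replicate 2 (adjusted p 0.0503 to 0.132) and without sham replicates 1 and 3 and day 3 replicates 2, 3 and 5 (adjusted p 0.0519 to 0.177) respectively. In muscle, where Eif4e3 stood higher at 56.4, 63.6 and 70.9 CPM in sham, its changes were -0.087 ± 0.17, -0.22 ± 0.16 and -0.28 ± 0.16 (adjusted p 0.76, 0.291 and 0.529).

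The 2 helicase genes Eif4a1 (chr11:69666936-69672423, minus strand) and Eif4a2 (chr16:23107468-23114132, plus strand) code for near-identical eIF4A proteins that unwind the leader of the message. Eif4a1 held 145, 141 and 147 CPM in sham liver and 198, 448, 247, 403 and 309.8 at day 1. Day 3 gave 217, 191, 182, 197 and 186 and day 7 gave 166, 173, 315, 139.6 and 214. It rose at day 1 (1.15 ± 0.27, adjusted p = 0.00649), with changes of 0.43 ± 0.26 and 0.48 ± 0.26 at days 3 and 7 (adjusted p 0.227 and 0.201). Eif4a2 went the other way, with 200.4, 198 and 191 CPM in sham liver and 144, 120.4, 117, 166 and 222 at day 1. Day 3 gave 66.1, 60.7, 82.9, 76.3 and 76.97 and day 7 gave 116, 88.6, 143, 141 and 85.4. All day 3 livers lay below all sham livers. It fell at day 3 (-1.44 ± 0.21, adjusted p = 0.000226) and day 7 (-0.77 ± 0.21, adjusted p = 0.0183), the latter lost without sham replicates 1, 2 and 3 (adjusted p 0.0577 to 0.0686), and day 1 gave -0.35 ± 0.21 (adjusted p = 0.218). In quadriceps both rose at day 3. Eif4a1 muscles held 43.5, 47.0 and 53.6 CPM in sham and 94.7, 97.6, 95.2, 68.8 and 81.1 at day 1. Day 3 gave 221, 181, 171, 164 and 126 and day 7 gave 41.9, 62.6, 97.7, 52.6 and 108. Its day 3 change was 1.84 ± 0.28 (adjusted p = 0.000313), the smallest p among the members there. Eif4a2 muscles held 205, 208 and 222 CPM in sham and 333, 319.6, 369, 298 and 290.4 at day 1. Day 3 gave 625.3, 560.2, 544, 553 and 385 and day 7 gave 197, 197, 384, 195 and 223. All day 3 muscles lay above all sham muscles for both genes, and the day 3 change of Eif4a2 was 1.33 ± 0.22 (adjusted p = 0.00048). How reads that match both copies were counted is not given in the sources used here, so the split between such close relatives (also Eif1 with Eif1b, Eif1a with Eif1ax, Eif2s3x with Eif2s3y and Eif5a with Eif5a2) is uncertain.

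The promoters of Eif4a1 and Eif4a2 are shown because the paralogues went different ways in liver. Sites in a RefSeq promoter window of Eif4e are shown because Eif4e was the only member that fell in day 3 muscle. Sequences are from RefSeq on GRCm38.p6, with the E-box CACGTG in capitals, a palindrome that reads the same on both strands and is bound by MYC and related factors. Eif4a1 is drawn from chr11:69672474-69672673 on the minus strand, bases -250 to -51 from the start, and holds 1 E-box at -189. Eif4a2 is drawn from chr16:23107218-23107417 on the plus strand over the same stretch and holds none. Both Eif4e sites lie on the plus strand, at chr3:138527028-138527057 (E-box at -228) and chr3:138527192-138527221 (E-box at -64). They lie inside the deposited Eif4e gene, which starts at chr3:138526191, so their window belongs to a start within the gene. That window was picked because it holds E-boxes.
Eif4a1: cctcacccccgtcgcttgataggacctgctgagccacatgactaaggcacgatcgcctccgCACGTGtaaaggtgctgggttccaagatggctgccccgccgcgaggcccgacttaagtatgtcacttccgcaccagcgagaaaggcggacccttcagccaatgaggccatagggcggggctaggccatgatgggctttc
Eif4a2: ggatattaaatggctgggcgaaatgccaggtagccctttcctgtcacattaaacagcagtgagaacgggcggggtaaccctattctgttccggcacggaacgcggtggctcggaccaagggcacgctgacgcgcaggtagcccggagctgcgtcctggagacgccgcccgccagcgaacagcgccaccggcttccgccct
Eif4e site 1: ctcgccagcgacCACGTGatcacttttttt
Eif4e site 2: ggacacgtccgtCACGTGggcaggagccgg
RefSeq held promoter windows of 300 bases, from 250 before to 50 after the start, for 38 of the 48 genes. CACGTG occurred in 12 of their 50 windows (24.0%), in 10 genes, against 2349 of 32851 windows of all genes (7.15%). The genes were Eif1b, Eif3a, Eif3f, Eif3k, Eif4a1, Eif4e, Eif4g1, Eif4h, Eif5a and Eif5a2. Windows were counted singly, also where those of a gene overlap. The Eif5a windows chr11:69921337-69921636 and chr11:69921226-69921525 hold the same E-box, which was counted in both. The C/EBP-ATF element TGATGNAA, searched on both strands, occurred in 1 of 50 windows (2.0%, Eif2s3x) against 3.97% of all windows. A match of letters is a description of the window and not a bound site.

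Eif4b (chr15:102073773-102097173, plus strand) codes for a protein that stimulates the helicase, and it fell in liver at every day while it rose in day 3 muscle. Sham livers held 245, 245 and 259 CPM and day 1 livers 146, 144, 127, 158 and 186. Day 3 livers held 131, 119.7, 109, 111 and 114 and day 7 livers 126, 133, 171, 139 and 137. The liver changes were -0.71 ± 0.13, -1.09 ± 0.13 and -0.82 ± 0.13, with adjusted p of 0.00227, 8.99e-05 and 0.00159, and all livers of days 3 and 7 lay below sham. Quadriceps held 173, 185 and 207 CPM in sham and 232, 254, 231, 261 and 221 at day 1. Day 3 gave 379.9, 399.7, 363, 379.9 and 285 and day 7 gave 146, 277, 225, 175 and 348, with a day 3 change of 0.94 ± 0.22 (adjusted p = 0.00313). Eif4h, a shorter relative with the same task, rose in day 3 muscle (0.73 ± 0.17, adjusted p = 0.00259) and had liver changes of 0.20 ± 0.11, -0.065 ± 0.11 and -0.012 ± 0.11. Its sham levels were 112, 101.3 and 111 CPM in liver and 62.4, 61.6 and 62.1 in quadriceps. Day 3 muscles held 136, 107, 84.6, 104 and 81.7 CPM of it, and day 7 muscles 63.5, 57.5, 76.4, 68.5 and 57.7. Eif4a3 belongs to the exon junction complex rather than to eIF4F. It rose in day 3 muscle, from 15.1, 13.0 and 12.5 CPM to 42.9, 31.7, 28.3, 36.1 and 19.2 (1.22 ± 0.22, adjusted p = 0.000657), and stood at 12.4, 16.8, 21.3, 13.0 and 16.7 at day 7.

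The scaffold gene Eif4g1 held 551, 532 and 642 CPM in sham liver and 704, 580.0, 699, 662 and 530.3 at day 1. Day 3 gave 542, 523, 514, 468 and 517 and day 7 gave 370.2, 404, 624.6, 479.6 and 492. No liver change passed (0.14 ± 0.17, -0.16 ± 0.17 and -0.28 ± 0.17, adjusted p 0.551, 0.49 and 0.252). Quadriceps held 539, 601 and 567.7 CPM in sham and 706, 731, 706, 783 and 792 at day 1. Day 3 gave 761, 1069, 969, 1056 and 716 and day 7 gave 427, 533, 649, 429 and 718. The gene rose at day 3 (0.68 ± 0.20, adjusted p = 0.0091), with every day 1 and day 3 muscle above every sham muscle. Eif4g3, another scaffold, rose in both tissues at day 3. Its livers held 95.6, 79.7 and 93.4 CPM in sham and 153, 149, 133, 131 and 129 at day 3 (0.63 ± 0.18, adjusted p = 0.0142), a call lost without sham replicates 2 and 3 (adjusted p 0.0527 to 0.084). Its muscles held 314, 312 and 297 CPM in sham and 417, 765, 853, 798 and 616 at day 3 (1.17 ± 0.30, adjusted p = 0.00522). Eif4g2, whose product lacks the eIF4E-binding part and serves cap-independent initiation, was called in neither tissue at any day, with changes of 0.20, -0.11 and -0.19 in liver and 0.075, 0.02 and -0.18 in quadriceps.

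Ratios of partner genes within a library do not depend on scaling between libraries, and were taken as reads per kb of gene length. Eif4ebp1 per Eif4e, the inhibitor over its target, was 0.554, 0.499 and 0.958 in sham muscles and 4.60, 2.79, 5.29, 1.64 and 1.40 at day 1. Day 3 gave 11.3, 12.6, 13.3, 13.7 and 8.65 and day 7 gave 0.484, 5.14, 7.50, 1.46 and 8.44. Every day 1 and day 3 muscle lay above every sham muscle, with log2 differences of 2.10 and 4.19, and day 7 overlapped. Eif4a2 per Eif4a1 was 0.813, 0.830 and 0.769 in sham livers and 0.427, 0.159, 0.280, 0.244 and 0.423 at day 1. Day 3 gave 0.180, 0.188, 0.270, 0.228 and 0.244 and day 7 gave 0.413, 0.303, 0.269, 0.598 and 0.236. Every PHx liver lay below every sham liver (log2 differences -1.48, -1.87 and -1.23), and the ratio in day 3 muscle, 1.67, 1.82, 1.88, 1.99 and 1.81, lay below the sham ratios of 2.78, 2.61 and 2.44. Eif4ebp2 per Eif4ebp1 was 5.58, 4.27 and 5.54 in sham livers and 3.75, 1.17, 3.59, 1.36 and 1.22 at day 1. Day 3 gave 1.73, 2.44, 3.58, 2.27 and 3.53 and day 7 gave 3.37, 3.87, 1.63, 3.76 and 2.80, again with no overlap. In muscle that ratio was 3.75, 4.38 and 2.42 in sham and 0.252, 0.309, 0.284, 0.255 and 0.361 at day 3. Eif4g3 per Eif4g1 was 0.125 to 0.149 in sham livers and 0.215 to 0.245 at day 3, and Eif4e3 per Eif4e was 0.229 to 0.333 in sham livers and 0.104 to 0.130 at day 3. Of 30 such comparisons, 16 did not overlap and had an unadjusted p under 0.05 in a two-sided exact permutation test, 0 passed adjustment over the 30, and the smallest adjusted p was 0.067. The smallest p that 5 against 3 libraries allowed was 0.0357.

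**Figure D3:**
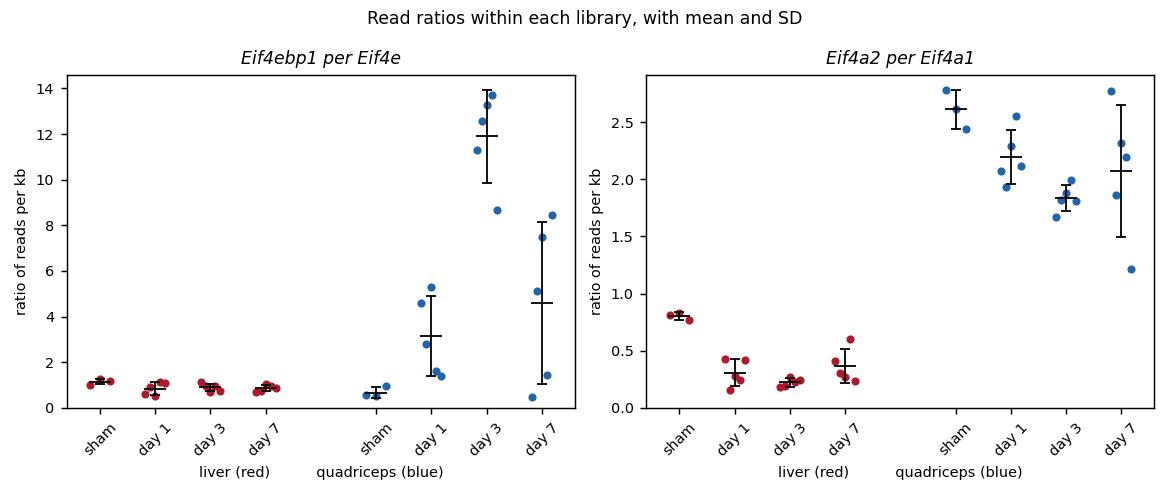
Read ratio per kb in each library of Eif4ebp1 to Eif4e and of Eif4a2 to Eif4a1, in sham and at days 1, 3 and 7 after PHx for liver and quadriceps. Eif4ebp1 per Eif4e runs from 8.65 to 13.7 in day 3 muscles against 0.499 to 0.958 in sham muscles, and Eif4a2 per Eif4a1 lies lower in all PHx livers than in the sham livers.

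All 12 measured subunits of eIF3, the largest initiation factor, rose in day 3 quadriceps (24.8% of all genes did), with a median log2 fold change of 0.98 and a range of 0.40 to 1.96. Eif3a (chr19:60761116-60790693, minus strand) codes for the scaffold of the complex and had the largest of these rises. It stood at 144, 151 and 147 CPM in sham muscles and 252, 236, 269, 219 and 204 at day 1. Day 3 gave 757, 692, 491, 660.4 and 266 and day 7 gave 119, 168, 311, 136 and 245. All day 3 muscles lay above all sham muscles, with changes of 0.68 ± 0.32, 1.96 ± 0.34 and 0.41 ± 0.31 and adjusted p of 0.177, 0.000512 and 0.639. In liver Eif3a held 168, 167 and 174 CPM in sham and 217, 233, 225, 202 and 153 at day 1. Day 3 gave 165, 159, 181, 173 and 181 and day 7 gave 156, 168, 234, 145 and 193. None of its liver changes passed (0.28 ± 0.16, 0.016 ± 0.16 and 0.079 ± 0.16, adjusted p 0.206, 0.953 and 0.769).

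Eif3g, an RNA-binding subunit, went in muscle from 8.95, 9.16 and 9.37 CPM in sham to 11.4, 12.2, 13.8, 12.6 and 13.4 at day 1 and 27.2, 30.3, 23.1, 27.5 and 18.6 at day 3 (1.47 ± 0.24, adjusted p = 0.000443). Eif3b, which forms the core with Eif3a, held 55.9, 62.9 and 54.7 CPM in sham, 75.9, 72.1, 83.2, 78.1 and 81.7 at day 1 and 145, 160.4, 158, 153 and 113 at day 3 (1.33 ± 0.25, adjusted p = 0.000743). Eif3l, a subunit of the outer ring, held 43.7, 49.8 and 54.4 CPM in sham, 50.3, 47.7, 56.3, 45.5 and 44.9 at day 1 and 79.8, 87.7, 83.4, 85.7 and 68.4 at day 3 (0.72 ± 0.16, adjusted p = 0.00196). These 3 subunits had no overlap between day 3 and sham muscles. The other day 3 changes were 1.08 for Eif3d, which can itself bind the cap, 1.05 for Eif3e, 1.01 for Eif3c, 0.95 for Eif3m, 0.57 for Eif3k, 0.52 for Eif3i, 0.46 for Eif3h and 0.40 for Eif3f. The smallest of these were the least stable. Eif3f lost its call without sham replicates 1, 2 and 3 and day 3 replicates 2, 3, 4 and 5 (adjusted p 0.051 to 0.125), Eif3h without sham replicate 1 (adjusted p 0.0516) and Eif3i without sham replicate 3 (adjusted p 0.0587).

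In day 1 liver 3 of the 12 subunits rose (16.7% of all genes), Eif3b (0.54 ± 0.14, adjusted p = 0.0102), Eif3e (0.56 ± 0.20, adjusted p = 0.0481) and Eif3i (0.36 ± 0.13, adjusted p = 0.0442). These calls were lost without sham replicate 2 (adjusted p 0.054), without sham replicates 1, 2 and 3 and day 1 replicates 2, 4 and 5 (adjusted p 0.0853 to 0.124) and without sham replicates 1, 2 and 3 and day 1 replicates 2, 3, 4 and 5 (adjusted p 0.0502 to 0.135) respectively. With both doubted livers left out, Eif3d, Eif3g, Eif3h and Eif3m were called as well at day 1.

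Of the 6 genes of eIF2 and other carriers of initiator tRNA, 5 rose in day 3 muscle, against 24.8% of all genes. These 6 include Eif2a and Eif2d, which do not code for eIF2 subunits. Of the genes of the exchange factor eIF2B, 3 of 5 rose. Eif2s1 codes for the alpha subunit of eIF2, the one that stress kinases phosphorylate. In quadriceps it held 43.1, 37.8 and 41.2 CPM in sham and 60.8, 55.7, 58.2, 49.1 and 51.4 at day 1. Day 3 gave 95.7, 81.99, 80.1, 92.01 and 66.3 and day 7 gave 44.8, 43.8, 59.0, 41.8 and 61.1. Day 3 muscles all lay above sham muscles, and the changes were 0.44 ± 0.16, 1.03 ± 0.16 and 0.30 ± 0.15, with adjusted p of 0.0922, 0.000339 and 0.471. Liver values were 52.6, 49.7 and 47.9 in sham and 65.4, 100.3, 71.3, 94.2 and 71.8 at day 1. Day 3 gave 76.1, 56.2, 65.2, 62.7 and 59.5 and day 7 gave 58.1, 59.8, 85.8, 55.2 and 68.9. It rose in liver at day 1 (0.69 ± 0.17, adjusted p = 0.00915), and days 3 and 7 gave 0.35 ± 0.17 and 0.39 ± 0.17 (adjusted p 0.128 and 0.113).

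The other eIF2 subunits also rose in muscle, with day 3 changes of 1.03 for Eif2s2 (beta), 0.85 for Eif2s3x (gamma, on the X chromosome) and 0.93 for Eif2s3y (its copy on the Y chromosome). Eif2s3x stood at 25.0, 22.5 and 24.0 CPM in sham muscles, 55.5, 44.8, 42.0, 42.9 and 29.3 at day 3 and 22.3, 26.0, 28.6, 22.9 and 30.6 at day 7. Eif2a, which codes for a separate factor that can deliver tRNA without eIF2, fell in liver and rose in muscle. Its livers held 48.9, 52.1 and 44.9 CPM in sham and 40.8, 48.3, 49.3, 56.04 and 55.1 at day 1. Day 3 gave 36.2, 37.0, 32.1, 33.4 and 32.7 and day 7 gave 32.0, 37.2, 43.3, 36.4 and 33.6. The changes were -0.50 ± 0.12 (adjusted p = 0.00683) at day 3 and -0.41 ± 0.12 (adjusted p = 0.0284) at day 7, the latter lost without sham replicates 1, 2 and 3 and day 7 replicates 1, 2 and 5 (adjusted p 0.0524 to 0.116). Muscles held 42.3, 45.01 and 45.3 in sham, 73.4, 75.4, 74.4, 71.9 and 57.6 at day 3 and 39.5, 50.8, 56.1, 46.5 and 69.9 at day 7, with a day 3 change of 0.67 ± 0.16 (adjusted p = 0.00329). Eif2d, another tRNA carrier, was not called against sham in either tissue, with changes between -0.36 and 0.33.

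In liver the eIF2B genes that rose were Eif2b2 and Eif2b3, and in muscle Eif2b1, Eif2b4 and Eif2b5. Eif2b3 codes for the gamma subunit of the exchange factor, and its livers held 10.2, 7.24 and 8.37 CPM in sham and 11.8, 25.6, 17.1, 22.6 and 18.03 at day 1. Day 3 gave 13.5, 12.5, 9.06, 10.2 and 8.80 and day 7 gave 8.73, 9.59, 18.7, 8.68 and 11.0. All day 1 livers lay above sham, and the gene rose there (1.14 ± 0.28, adjusted p = 0.00894). The later changes were 0.33 ± 0.28 and 0.39 ± 0.28 (adjusted p 0.4 and 0.332). In muscle it held 12.2, 16.0 and 14.1 CPM in sham and 15.8, 14.6, 12.1, 13.7 and 10.5 at day 1. Day 3 gave 14.8, 17.4, 18.2, 18.6 and 15.7 and day 7 gave 11.5, 14.5, 13.99, 12.04 and 18.5. The groups overlapped, with changes of -0.079 ± 0.17, 0.27 ± 0.17 and 0.0013 ± 0.17 (adjusted p 0.793, 0.212 and 0.998). Eif2b2, the beta subunit, also rose in day 1 liver, from 7.71, 6.74 and 7.49 CPM to 10.5, 25.9, 7.60, 29.0 and 21.9 (1.37 ± 0.36, adjusted p = 0.0113), and its muscles held 12.7, 14.2 and 13.2 in sham and 13.8, 14.7, 13.8, 16.1 and 17.1 at day 1. The alpha, delta and epsilon genes Eif2b1, Eif2b4 and Eif2b5 rose in muscle at day 3, by 1.24, 1.38 and 0.93 on the log2 scale, while their day 1 liver changes of 0.30, 0.70 and 0.015 did not pass.

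**Figure D4:**
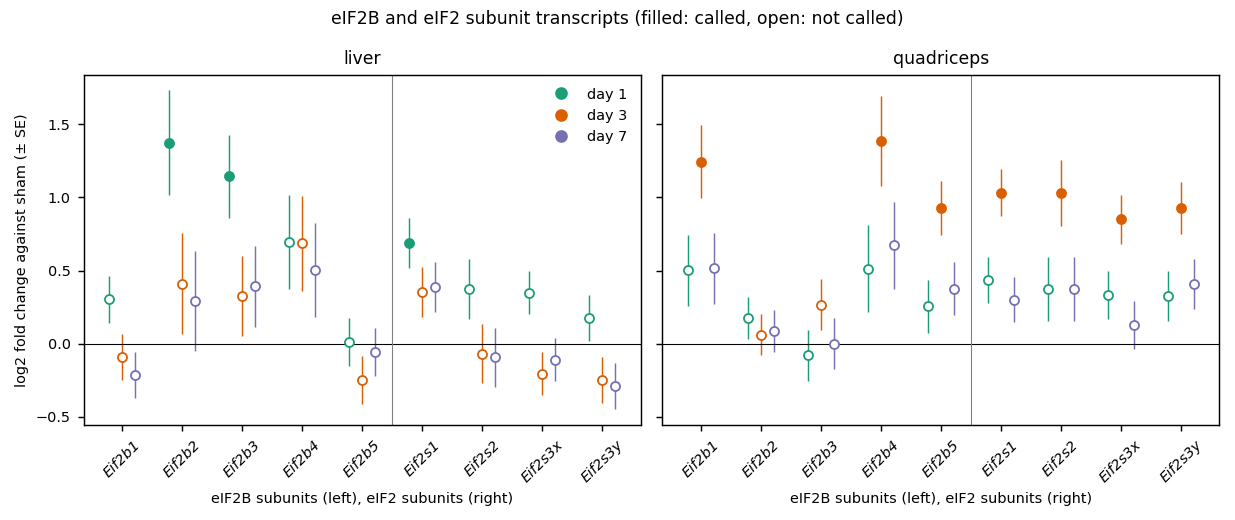
Log2 fold change ± SE against sham of the eIF2 and eIF2B subunit genes at days 1, 3 and 7 after PHx in liver and quadriceps, with filled points for adjusted p under 0.05. In day 3 quadriceps Eif2s1, Eif2s2, Eif2s3x, Eif2s3y, Eif2b1, Eif2b4 and Eif2b5 are filled and positive, and in day 1 liver Eif2s1, Eif2b2 and Eif2b3 are.

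Among the factors that select the start codon, 4 of 6 rose in day 3 muscle (24.8% of all genes) and 2 in day 1 liver (16.7%). Eif1 keeps the scanning ribosome from starting at wrong codons, and its muscles held 207, 198 and 196 CPM in sham and 301, 283, 301, 265 and 285 at day 1. Day 3 gave 592, 596, 576, 616 and 394 and day 7 gave 164, 278, 281, 168 and 396. Day 3 muscles lay above sham (1.47 ± 0.25, adjusted p = 0.000489). Livers held 165, 173 and 175 in sham, 169, 148, 109, 106 and 111 at day 3 and 79.4, 91.4, 129, 118 and 94.2 at day 7, and the gene fell at day 7 (-0.74 ± 0.19, adjusted p = 0.0148), a call lost without sham replicates 2 and 3 (adjusted p 0.0512 to 0.0606). Eif1a, which codes for an eIF1A that spans the decoding site, had the largest rise of any member in day 1 liver. It went from 50.6, 42.0 and 38.8 CPM in sham to 84.6, 201, 169.6, 201 and 139 at day 1 and 119, 100.8, 105, 104 and 94.2 at day 3 (1.86 ± 0.33, adjusted p = 0.00172, and 1.26 ± 0.32, adjusted p = 0.00808). The day 3 call was lost without sham replicate 3 (adjusted p 0.0508). Eif1ax, the X-linked copy, went from 14.2, 15.8 and 15.7 CPM in sham to 16.5, 25.3, 16.9, 26.3 and 21.4 at day 1 and 17.0, 15.5, 13.8, 13.3 and 13.7 at day 3 in liver, with a rise at day 1 (0.48 ± 0.17, adjusted p = 0.0399) that was lost without sham replicates 1, 2 and 3 and day 1 replicates 2, 4 and 5 (adjusted p 0.0575 to 0.141). In day 3 muscle Eif1a rose by 1.16, Eif1b by 0.54 and Eif5, the GTPase activator of eIF2, by 0.60. The Eif5 call was lost without sham replicates 1, 2 and 3 and day 3 replicates 1 and 2 (adjusted p 0.0831 to 0.105). Eif5 had a day 1 liver change of 0.92 ± 0.36 (adjusted p = 0.0605), and with both doubted livers left out it was 1.09 with an adjusted p of 0.00142. Eif1ad, named for a domain it shares with eIF1A, was not called against sham.

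Eif6 (chr2:155819837-155826925, minus strand) was called in both tissues. Its product binds the large ribosomal subunit, is needed to make it and keeps it from joining early. Livers held 16.4, 15.3 and 17.3 CPM in sham and 35.4, 67.8, 34.1, 60.02 and 43.1 at day 1. Day 3 gave 51.8, 43.8, 35.1, 38.6 and 39.1 and day 7 gave 28.8, 33.8, 70.3, 18.4 and 41.5. All livers of days 1 and 3 lay above sham, and the changes were 1.56 ± 0.34, 1.35 ± 0.33 and 1.24 ± 0.33 with adjusted p of 0.00474, 0.00706 and 0.0181. The day 7 call was lost without sham replicates 1, 2 and 3 (adjusted p 0.0704 to 0.0707). Muscles held 7.24, 6.68 and 6.67 in sham and 11.1, 9.87, 12.5, 7.36 and 8.83 at day 1. Day 3 gave 34.1, 24.7, 20.7, 21.2 and 13.0 and day 7 gave 7.77, 12.05, 11.0, 7.68 and 17.9, and the gene rose at day 3 (1.73 ± 0.31, adjusted p = 0.000597), with 0.53 ± 0.29 and 0.71 ± 0.30 at days 1 and 7 (adjusted p 0.248 and 0.363).

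Eif5a codes for the hypusine-bearing factor that helps ribosomes through difficult stretches. Liver levels were 154, 158 and 170.1 CPM in sham and 213, 252, 222, 295 and 252 at day 1. Day 3 gave 247, 195, 181, 185 and 179 and day 7 gave 147, 155, 205, 179 and 208. It rose in liver at day 1 (0.62 ± 0.16, adjusted p = 0.0108), a call lost without sham replicate 1 (adjusted p 0.0516), while days 3 and 7 gave 0.29 ± 0.16 and 0.15 ± 0.16 (adjusted p 0.171 and 0.524). Muscle held 120.1, 118 and 121 CPM in sham and 114, 130.5, 104, 148 and 144 at day 1. Day 3 gave 161, 177, 179.8, 168 and 130.3 and day 7 gave 106, 123, 99.3, 119 and 197. Day 3 muscles lay above sham, days 1 and 7 overlapped with it, and there were changes of 0.095 ± 0.20, 0.45 ± 0.20 and 0.10 ± 0.20 that did not pass (adjusted p 0.78, 0.0744 and 0.869). Eif5a2, its scarce relative, rose in day 3 liver (1.65 ± 0.57, adjusted p = 0.0389), a call lost without sham replicates 1, 2 and 3 and day 3 replicates 1, 2 and 4 (adjusted p 0.0576 to 0.148), from 0.607, 0.769 and 0.441 CPM in sham to 2.46, 2.52, 1.47, 1.70 and 1.39. Eif5b, the GTPase that joins the subunits, rose in day 3 muscle, from 90.1, 96.002 and 96.6 CPM in sham and 120.4, 108, 120.4, 112 and 106 at day 1 to 232, 208, 194, 211 and 156 (1.09 ± 0.20, adjusted p = 0.000667). In liver it fell at day 3, from 80.6, 68.5 and 80.9 CPM to 61.9, 58.9, 58.0, 56.4 and 60.5 (-0.38 ± 0.11, adjusted p = 0.0191), a call lost without sham replicates 1 and 3 (adjusted p 0.0712 to 0.0886).

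Between days 1 and 3 members fell in liver and rose in muscle. In liver 0 members rose and 21 fell from day 1 to day 3 (11.6% and 13.6% of all genes), with a median change of -0.38 against -0.030, and 7 of the 12 eIF3 subunits were among them. The smallest p values were those of Eif4a2 (-1.08 ± 0.19), Eif2a (-0.54 ± 0.11), Eif3e (-0.82 ± 0.17), Eif2s3x (-0.55 ± 0.13), Eif3g (-0.77 ± 0.19), Eif3d (-0.64 ± 0.17), Eif1ax (-0.54 ± 0.14) and Eif3f (-0.49 ± 0.13). Eif3e held 97.1, 193, 113, 179.7 and 166 CPM at day 1 and 99.3, 91.5, 77.5, 79.7 and 76.1 at day 3. Eif3g held 15.3, 26.9, 16.5, 27.7 and 25.1 at day 1 and 15.2, 11.5, 13.1, 12.7 and 12.6 at day 3. Eif3d held 46.9, 72.4, 47.2, 55.8 and 42.3 at day 1 and 41.2, 34.5, 30.2, 32.3 and 31.4 at day 3. In these subunits day 1 replicate 1 was among the lowest of its group and day 3 replicate 1 the highest of its own, and the 2 days overlapped in Eif3e. Eif3f, a subunit of the outer ring, went from 50.6, 67.4, 49.4, 69.6 and 70.9 to 51.8, 46.2, 39.2, 40.7 and 41.5, and Eif2s3x from 32.1, 40.6, 35.8, 45.3 and 39.0 to 27.6, 26.1, 26.6, 25.0 and 25.9, with an overlap in Eif3f and none in Eif2s3x. The other falls were those of Eif1 (-0.57), Eif2b1 (-0.39), Eif2b2 (-0.96), Eif2b3 (-0.82), Eif2s3y (-0.42), Eif3b (-0.39), Eif3h (-0.39), Eif3m (-0.65), Eif4a1 (-0.72), Eif4b (-0.38), Eif4e (-0.55), Eif4e2 (-0.43) and Eif5 (-0.91). The count was 11, 12 and 11 without day 1 replicate 4, day 3 replicate 3 and day 3 replicate 5, and 31 (2 higher, 29 lower) with both doubted livers left out. Calls lost without single libraries were those of Eif1, Eif2b1, Eif2b2, Eif2b3, Eif2s3y, Eif3b, Eif4a1, Eif4b, Eif4e, Eif4e2 and Eif5, over day 1 replicates 2, 3, 4 and 5 and day 3 replicates 2, 3, 4 and 5 (adjusted p 0.05 to 0.121).

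In muscle 25 members rose and 0 fell from day 1 to day 3 (13.6% and 12.6% of all genes, median 0.45), 9 of them eIF3 subunits. The smallest p values there were those of Eif3l (0.73 ± 0.13), Eif3g (0.999 ± 0.20), Eif5b (0.82 ± 0.17), Eif6 (1.19 ± 0.25), Eif3a (1.28 ± 0.27), Eif1 (0.95 ± 0.21), Eif2s1 (0.60 ± 0.13) and Eif3b (0.90 ± 0.21). The other rises were those of Eif2b1 (0.74), Eif2b4 (0.87), Eif2b5 (0.67), Eif2s2 (0.66), Eif2s3x (0.51), Eif2s3y (0.60), Eif3c (0.79), Eif3d (0.66), Eif3e (0.72), Eif3h (0.37), Eif3k (0.46), Eif4a1 (0.98), Eif4a2 (0.73), Eif4a3 (0.69), Eif4b (0.59), Eif4ebp1 (1.67) and Eif4g3 (0.92). Those lost without 1 library were Eif2b4, Eif3h and Eif4b, over day 1 replicates 1, 3 and 5 and day 3 replicates 1, 2 and 4 (adjusted p 0.0515 to 0.0648).

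From day 3 to day 7 the muscle values came back towards sham: 30 members fell and 1, Eif2d (0.46 ± 0.14, adjusted p = 0.019), rose, against 19.5% and 17.0% of all genes, with a median change of -0.58. Members with the smallest p were Eif4a2 (-1.16 ± 0.19), Eif3a (-1.55 ± 0.27), Eif4a1 (-1.25 ± 0.23), Eif2s1 (-0.73 ± 0.13), Eif1 (-1.11 ± 0.21), Eif4a3 (-0.98 ± 0.19), Eif2s3x (-0.72 ± 0.14) and Eif4e2 (-0.60 ± 0.13). The other falls were those of Eif1a (-0.95), Eif1b (-0.45), Eif2a (-0.42), Eif2b1 (-0.73), Eif2b4 (-0.71), Eif2b5 (-0.55), Eif2s2 (-0.66), Eif2s3y (-0.52), Eif3b (-0.65), Eif3d (-0.80), Eif3e (-0.53), Eif3g (-0.85), Eif3l (-0.50), Eif3m (-0.65), Eif4b (-0.63), Eif4ebp1 (-1.47), Eif4enif1 (-0.58), Eif4g1 (-0.73), Eif4g3 (-0.86), Eif4h (-0.67), Eif5b (-0.59) and Eif6 (-1.01). With only the 2 groups compared in the fit, 18 members were called. With 1 library left out, the calls lost were those of Eif2a, Eif2b4, Eif2d, Eif3b, Eif3e and Eif4b, over day 3 replicates 1, 2, 3 and 4 and day 7 replicates 1, 2 and 4 (adjusted p 0.0505 to 0.0966). In liver the same step changed 1 member, Eif4e3, which rose (1.05 ± 0.23, adjusted p = 0.0354), against 1.26% of all genes called (0.612% higher). That call was lost without day 3 replicates 1, 2, 3, 4 and 5 and day 7 replicates 1, 2 and 4 (adjusted p 0.0565 to 0.109), and 2 members were called with both doubted livers left out.

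Whether the tissues responded differently was tested directly, as the liver response minus the muscle response. At day 3, 30 members responded lower in liver and 1, Eif4e, higher, against 21.6% and 19.9% of all genes, with a median difference of -0.80 in the members and 0.029 in all genes. No library left out in turn removed a member from these calls. Eif4ebp1 had the largest difference (-3.48 ± 0.66, adjusted p = 0.000173), followed by the helicase Eif4a2 (-2.78 ± 0.31, adjusted p = 8.8e-07) and its helper Eif4b (-2.04 ± 0.26, adjusted p = 1.65e-06). The other members with the smallest p were Eif5b (-1.47 ± 0.22), Eif1 (-1.89 ± 0.31), Eif2a (-1.19 ± 0.20), Eif3a (-1.95 ± 0.36) and Eif3g (-1.67 ± 0.32). Eif4e differed by 1.02 ± 0.30 in the other direction. In all, 11 of 12 eIF3 subunits were among the 30, the exception being Eif3i, and the remaining differences were those of Eif1b (-0.80), Eif2b1 (-1.34), Eif2b5 (-1.18), Eif2s1 (-0.69), Eif2s2 (-1.11), Eif2s3x (-1.06), Eif2s3y (-1.18), Eif3b (-1.19), Eif3c (-1.07), Eif3d (-1.22), Eif3e (-1.32), Eif3f (-0.66), Eif3h (-0.55), Eif3k (-0.54), Eif3l (-0.81), Eif3m (-1.11), Eif4a1 (-1.42), Eif4a3 (-1.15), Eif4e2 (-0.68), Eif4ebp2 (-0.96), Eif4g1 (-0.86) and Eif4h (-0.80). At day 1, 3 members responded higher in liver and 3 lower (11.2% of all genes called in either direction, 6.56% higher and 4.62% lower). Those higher were Eif4e (1.19 ± 0.30), Eif2b3 (1.23 ± 0.32) and Eif2b2 (1.199 ± 0.37), and those lower Eif4ebp2 (-0.91 ± 0.20), Eif4b (-1.05 ± 0.26) and Eif4a2 (-0.95 ± 0.31). Eif2b2 lost its call without liver sham replicates 1, 2 and 3, liver day 1 replicates 2, 4 and 5, quadriceps sham replicates 1, 2 and 3 and quadriceps day 1 replicate 3 (adjusted p 0.0519 to 0.0797) and Eif4a2 without liver sham replicates 1, 2 and 3, liver day 1 replicates 2 and 3, quadriceps sham replicates 1, 2 and 3 and quadriceps day 1 replicates 1, 2 and 3 (adjusted p 0.052 to 0.0868). Eif4a2 had an adjusted p of 0.0791 without both muscle-rich day 1 livers, a setting that does not balance muscle genes with the sham livers.

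At day 7, 7 members responded lower in liver than in muscle and 0 higher (2.64% of all genes lower, 4.44% higher, 7.08% called in all). They were Eif4b (-1.15 ± 0.26), Eif3f (-0.87 ± 0.21), Eif1 (-1.11 ± 0.31), Eif2a (-0.68 ± 0.20), Eif4ebp1 (-2.11 ± 0.65), Eif4ebp2 (-0.66 ± 0.20) and Eif5b (-0.68 ± 0.21). Eif3f held 52.6, 51.1 and 52.9 CPM in sham livers and 34.0, 38.8, 48.6, 40.9 and 42.3 in day 7 livers. In muscle it held 61.3, 62.9 and 68.7 CPM in sham and 84.1, 103.01, 62.4, 90.3 and 116 at day 7. Eif5b held 64.2, 64.3, 77.1, 63.0 and 72.01 in day 7 livers and 96.2, 150.2, 121, 105 and 193 in day 7 muscles. The count was 2 without liver sham replicate 1, 2 or 3, liver day 7 replicate 1, quadriceps sham replicate 1 or 2 or quadriceps day 7 replicate 5. It was 3 without liver day 7 replicate 5 or quadriceps sham replicate 3, 4 without liver or quadriceps day 7 replicate 2, and 11 and 12 without quadriceps day 7 replicates 1 and 4. The calls lost with 1 library left out were those of Eif1, Eif2a, Eif4ebp1, Eif4ebp2 and Eif5b, over liver sham replicates 1, 2 and 3, liver day 7 replicates 1, 2, 3, 4 and 5, quadriceps sham replicates 1, 2 and 3 and quadriceps day 7 replicates 1, 2, 3 and 5 (adjusted p 0.0512 to 0.131). With both doubted livers left out the count was 14.

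**Figure D5:**
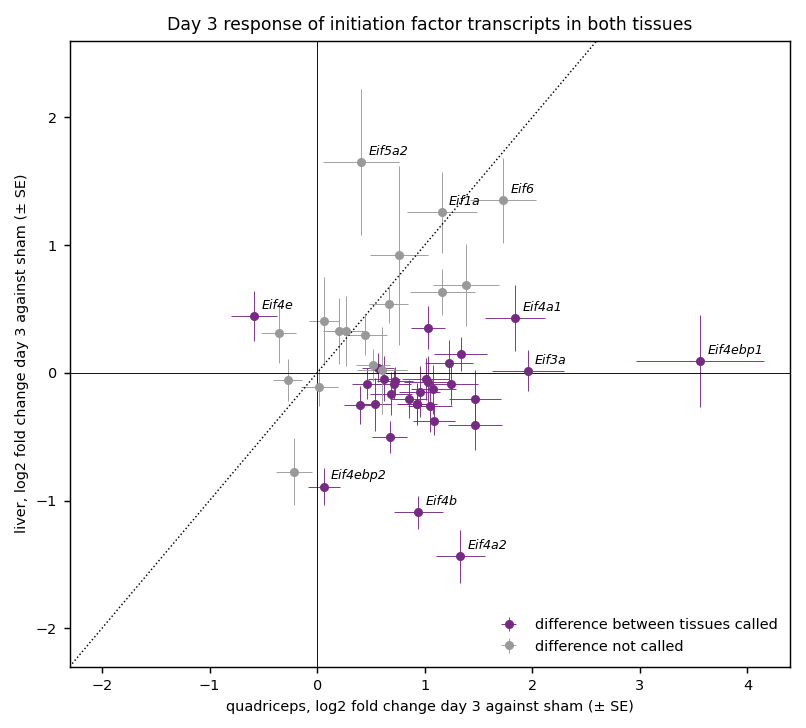
Day 3 log2 fold change against sham of each initiation factor gene in quadriceps (horizontal axis, ± SE) and liver (vertical axis, ± SE), with genes whose tissue difference had an adjusted p under 0.05 in purple. Most genes lie at positive muscle changes and near 0 or below in liver, Eif4ebp1 lies farthest right at 3.56, and Eif4e is the called gene with the opposite difference.

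Levels between genes were compared per kb of gene length in sham tissue (CPM per kb, mean ± SD, n = 3). In liver Eif1 was highest at 139 ± 4.57, followed by Eif4ebp2 at 121 ± 10.1, Eif4g1 at 104 ± 10.1, Eif5 at 93.4 ± 4.94 and Eif4g2 at 81.4 ± 3.11, and Eif5a2 was lowest at 0.120 ± 0.0331. In quadriceps Eif1 led with 176 ± 6.98, followed by Eif4g1 with 111 ± 6.83, Eif4g2 with 106 ± 5.06, Eif4ebp2 with 92.9 ± 8.40 and Eif3e with 81.7 ± 4.03. Neighbours in these orders overlap within their spread in part, as Eif4g1 and Eif4g2 do in quadriceps. The eIF3 subunits ran from 13.8 (Eif3g) to 73.7 (Eif3h) in liver and from 9.12 (Eif3g) to 81.7 (Eif3e) in quadriceps. Between tissues, with all 36 libraries scaled together, 10 members were higher and 11 lower in sham liver than in sham quadriceps (30.8% and 31.0% of all genes, 61.8% in all). Higher in liver with the smallest p were Eif1a (1.89 ± 0.37), Eif4a1 (1.48 ± 0.30), Eif3l (0.76 ± 0.16) and Eif4h (0.70 ± 0.16), and lower were Eif4e3 (-2.22 ± 0.26), Eif1ax (-1.24 ± 0.17), Eif4g3 (-1.89 ± 0.29) and Eif4e (-1.03 ± 0.23). Per kb in sham, Eif1a stood at 14.997 ± 2.10 in liver and 4.04 ± 0.489 in quadriceps, and its copy Eif1ax at 16.2 ± 0.993 and 38.3 ± 0.653. Also higher in liver were Eif4ebp3 (2.33), Eif6 (1.14), Eif3g (0.60), Eif3d (0.56), Eif4a3 (0.52) and Eif4ebp2 (0.39). Also lower were Eif5a2 (-1.94), Eif2s2 (-1.002), Eif2b2 (-0.98), Eif2b3 (-0.82), Eif2b5 (-0.49), Eif3f (-0.41) and Eif5b (-0.41). Leaving out 1 library ended the calls of Eif2b5, Eif3d, Eif3f, Eif3g, Eif4a3, Eif4ebp2 and Eif5b, over liver sham replicates 1, 2 and 3 and quadriceps sham replicates 1, 2 and 3 (adjusted p 0.0512 to 0.155).

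The genes that control these factors were described from a list of 40 regulators, 38 of them in the table, covering the mTORC1 pathway, eIF2 kinases and phosphatases and other helpers. In day 3 muscle 20 rose and 4 fell (24.8% and 22.6% of all genes), and in day 1 muscle 2 rose and 2 fell (3.04% and 2.26%). In day 1 liver 11 rose and 5 fell (16.7% and 11.0%), and in day 3 liver 2 rose and 8 fell (15.8% and 12.8%). Only a part of these genes is named below. Ddit4, an inhibitor of mTORC1 induced by stress and glucocorticoids, rose in day 3 muscle (6.24 ± 1.28), in day 1 muscle (6.14 ± 1.27) and in day 1 liver (3.98 ± 0.67). In muscle it went from 2.59, 2.69 and 2.34 CPM in sham to 58.0, 223, 257, 141 and 217 at day 1 and 186, 315, 131, 258 and 72.1 at day 3. Sesn1, another inhibitor of mTORC1, rose in day 3 muscle (4.19 ± 1.04), as did Ppp1r15a, a phosphatase subunit that restores eIF2 (4.02 ± 0.84), Mknk2, a kinase of eIF4E (2.75 ± 0.50), and Atf4, the transcription factor whose message is translated when eIF2 is phosphorylated (2.03 ± 0.43). Mtor itself changed by 0.95 ± 0.22 and Rheb, its activator, by 1.27 ± 0.23, both rises. Those that fell in day 3 muscle were Ddit4l, a relative of Ddit4 (-2.93 ± 0.32), Sesn3 (-1.45 ± 0.28), Deptor, an inhibitor within the mTOR complexes (-1.20 ± 0.28), and the kinase Eif2ak2 (-1.20 ± 0.22). Among the 5 that fell in day 1 liver were Deptor (-2.13 ± 0.42) and Pdcd4, an inhibitor of eIF4A (-1.52 ± 0.18).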

How the data were processed

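Members and lists were chosen with earlier results of these data known. RNA was extracted with QIAzol, treated with DNase and made into KAPA total RNA libraries, per the labels' protocols. Build mm10, STAR 2.7.10a, Subread 2.0.3 with featureCounts, edgeR 3.40.2 and FastQC 0.11.5 are named per the submitters' processing notes, and how multimapping reads and strand were treated is not given in the sources used here. The deposited table holds unnormalized read counts per gene for 36 libraries, gene lengths in bases, and the authors' log2 fold change and FDR (an adjusted p-value) for each day against sham. Another 36 per-sample columns were left unused. By the authors' deposited table, 11 members were higher and 3 lower in liver at day 1, 4 and 6 at day 3 and 1 and 6 at day 7, and in quadriceps 2 and 0, 36 and 1, and 1 and 0. Of these, 12, 10, 6, 0, 36 and 0 were called here too, 0 with the opposite sign.

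Counts were fitted within each tissue (18 libraries, R 4.3.3, edgeR 4.0.16, filterByExpr with a minimum count of 10, TMM, robust quasi-likelihood F-tests, two-sided) and adjusted by Benjamini-Hochberg over all genes at 0.05. Tissue differences were an interaction over 36 libraries for genes that passed the filter in each tissue, and sham tissues were compared after TMM over all 36. The SE is the fold change divided by the root of F. Per-kb levels divide CPM by gene length per 1000 bases, and ratios added 0.5 reads and were tested with scipy 1.17.1. Values in every sample are given for 12 genes named by rule (the 4E-BPs, Eif4e, Eif4a1, Eif4a2, Eif4g1, Eif2s1, Eif2b3, Eif3a, Eif5a and Eif6) and for up to 8 called members with the smallest p in a comparison, and the other called members by a log2 fold change. Alternatives were DESeq2 1.42.0, its size factors within edgeR, no filter on low counts, a replicate block, the compared groups alone, TMM over all libraries, a count of 5 added to ratios and each library left out in turn. Leaving out doubted or muscle-rich livers was added after seeing the data. The fits were also run on simulated data in which few genes changed, unlike day 3 quadriceps, where 47.5% of all genes were called. That run does not test the scaling between libraries in such a setting. Promoter windows came from RefSeq (GRCm38.p6).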

Additional observations from a re-analysis of the deposited data

Results flagged for a closer look

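Single libraries that stood apart from the other 4 of their group were found for 9 values, in 8.82% of the groups looked at, where chance gives about 1 in 20. In liver, Eif4ebp3 stood at 142 CPM in day 1 replicate 3 against 54.1 to 74.1 in the other day 1 livers, and at 153 CPM in day 7 replicate 3 against 9.45 to 48.1. Day 7 replicate 3 was also high in Eif2b3, at 18.7 CPM against 8.68 to 10.98. Eif5a stood at 247 CPM in liver day 3 replicate 1 against 179 to 195. In quadriceps, Eif4a2 stood at 384 CPM in day 7 replicate 3 against 195 to 223, and Eif5a at 197 CPM in day 7 replicate 5 against 99.3 to 123. Eif4e stood at 67.1 CPM in day 3 replicate 1 against 77.1 to 80.9. The ratio of Eif4ebp2 to Eif4ebp1 was 3.76 in quadriceps day 7 replicate 1 against 0.396 to 1.28, and that of Eif4e3 to Eif4e was 0.130 in liver day 1 replicate 1 against 0.061 to 0.0786.

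Responses that differed between the tissues in edgeR's interaction test, as liver minus quadriceps on the log2 scale, were at day 1 those of Eif2b2 (1.199), Eif2b3 (1.23), Eif4e (1.19), Eif4a2 (-0.95), Eif4b (-1.05) and Eif4ebp2 (-0.91). At day 3, among the members with values given per library, they were those of Eif4ebp1 (-3.48), Eif4a2 (-2.78), Eif4b (-2.04), Eif3a (-1.95), Eif1 (-1.89), Eif3g (-1.67), Eif5b (-1.47), Eif4a1 (-1.42), Eif2a (-1.19), Eif4ebp2 (-0.96), Eif4g1 (-0.86), Eif2s1 (-0.69) and Eif4e (1.02). Those of day 7 were Eif4ebp1 (-2.11), Eif4b (-1.15), Eif1 (-1.11), Eif3f (-0.87), Eif2a (-0.68), Eif5b (-0.68) and Eif4ebp2 (-0.66).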

How the results depend on the processing

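Counts of called members in day 3 quadriceps (33 to 39), in its steps from day 1 (22 to 31) and to day 7 (26 to 36), and in the day 3 tissue difference (31 to 33) moved little when single libraries were left out, with the ranges given. Elsewhere the range was 10 to 26 in liver at day 1, 6 to 11 at day 3, 2 to 8 at day 7, 11 to 29 from day 1 to day 3 and 0 to 1 from day 3 to day 7, 0 to 1 in quadriceps at day 1 and at day 7, 4 to 7 and 2 to 12 for the tissue differences of days 1 and 7, and 14 to 16 between sham tissues. With only the 2 groups compared in the fit, 8 members were called in liver at day 1, 23 at day 3 and 0 from day 3 to day 7, and in quadriceps 14 at day 1 and 18 from day 3 to day 7. DESeq2 called 2 in liver from day 3 to day 7, 6 and 1 in quadriceps at days 1 and 7, and 12 for the day 7 tissue difference. Leaving out both doubted livers gave 26 in liver at day 1, 2 from day 3 to day 7 and 14 for the day 7 tissue difference. The cause of these moves was not tested.

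Same-numbered libraries of the groups compared correlated between -0.30 and 0.18 within a tissue, in deviations from group means, and from -0.069 to 0.32 between tissues. Of the 5 pairs between tissues, 4 liver libraries at day 1 and 4 at day 7 correlated best with the muscle library of their own number, a hint from the data and not from the labels. Since no label ties libraries to animals, numbers were not taken to pair libraries. Tests of tissue differences thus treat liver and muscle libraries as unpaired, and a pairing by animal was not tested. With a replicate block the count from day 1 to day 3 in liver was 12 and that from day 3 to day 7 was 0, and the other counts stayed within 1.5 times.

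For 215 results on single genes, 3507 values were computed under alternatives: 3319 stayed on the same side of the threshold, 139 lost the call and 49 gained it. Among values called in the main fit or the alternative, 0 turned direction. Direction was not compared for values called in neither. At 12464547 or more reads a library, counting error is small for most members but not for Eif5a2, and 3 sham libraries limit every comparison with sham.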

Other observations

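Single libraries tended to lie at the edge of their group in many members at once. Liver day 7 replicate 3 was the highest of its 5 libraries in 42 of 48 members, and liver day 3 replicate 1 in 33. In quadriceps, day 7 replicate 5 was the highest in 34 members and above all sham muscles in 42, whereas day 7 replicates 1 and 4 were above all sham muscles in 14 and 16. Quadriceps day 3 replicate 5 was the lowest of its group in 38 members and above all sham muscles in 39.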
